A study of Caenorhabditis elegans with 3 samples.

Results

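The genes for the proteins of the cytoplasmic ribosome were examined in a chromatin immunoprecipitation and sequencing (ChIP-seq) study of EGL-27 in Caenorhabditis elegans. Members were taken by name from the Ensembl annotation of assembly WBcel235: protein-coding genes named rpl- or rps- plus a number, with or without a decimal part, and rla-0, rla-1 and rla-2. This gave 79 of 19973 nuclear protein-coding genes. By name alone, 45 belong to the large subunit (rpl-), 31 to the small subunit (rps-) and 3 to the stalk (rla-). The genes rpl-7A and rpl-36.A carry a letter after the number and fall outside the rule. All animals were L4 larvae of strain OP177, which carries unc-119(ed3) III and the transgene wgIs177, a stable insertion that expresses EGL-27 with a GFP-FLAG tag at its C-terminus. Whole animals of both sexes were pooled, so no tissue can be assigned to a peak. There is 1 group of 3 libraries, labelled biological replicates 1, 2 and 4, and no second condition. Nothing in the labels says whether they came from separate cultures.

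The ribosome translates messenger RNA into protein. Its small subunit reads the message, its large subunit joins amino acids, and the stalk recruits the GTPases that drive each step. The genes for its proteins are short, strongly expressed in growing larvae and needed in roughly equal amounts. Many worm messages have a spliced leader added at their front end, so an annotated start can lie downstream of the point where transcription begins. EGL-27 resembles the MTA proteins, which in vertebrates belong to NuRD, a complex that remodels chromatin.

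A peak was counted at a gene when its summit lay in the gene body or within 2000 bp of one of its transcript starts, and 1 peak may count at several neighbouring genes. The stretches below surround the summits of 5 members' peaks: the 3 members with a peak in the reproducible list (rps-16, rpl-20 and rpl-6), the member with the next highest pooled signal (rpl-12), and rps-28, whose window held a pair of the words searched. They were read from the RefSeq sequence of WBcel235 on the strand of the member, 5' to 3', and cover 100 bp to each side of the summit, except that rpl-12 was shortened to 174 bases so that at most 30 are annotated as transcribed leader. Capitals mark searched words on either strand, and in rps-16, rpl-20 and rpl-12 a run of 13 bases that these windows have in common.
rps-16 (chrV:15002195-15002395, minus strand): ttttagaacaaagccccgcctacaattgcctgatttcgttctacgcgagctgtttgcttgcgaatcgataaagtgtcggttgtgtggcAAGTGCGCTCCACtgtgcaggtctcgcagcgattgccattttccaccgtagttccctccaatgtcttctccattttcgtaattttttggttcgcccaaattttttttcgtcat
rpl-20 (chrIV:4750040-4750240, minus strand): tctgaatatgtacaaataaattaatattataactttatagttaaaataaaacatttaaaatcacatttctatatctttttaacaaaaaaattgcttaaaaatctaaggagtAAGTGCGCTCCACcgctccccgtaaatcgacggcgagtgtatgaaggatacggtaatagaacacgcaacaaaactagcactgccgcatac
rpl-12 (chrIV:13240622-13240795, minus strand): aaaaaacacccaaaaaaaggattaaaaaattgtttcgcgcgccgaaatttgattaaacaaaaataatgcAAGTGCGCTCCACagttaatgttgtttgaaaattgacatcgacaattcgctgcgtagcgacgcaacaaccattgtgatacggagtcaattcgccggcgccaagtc
rpl-6 (chrIII:7208032-7208232, plus strand): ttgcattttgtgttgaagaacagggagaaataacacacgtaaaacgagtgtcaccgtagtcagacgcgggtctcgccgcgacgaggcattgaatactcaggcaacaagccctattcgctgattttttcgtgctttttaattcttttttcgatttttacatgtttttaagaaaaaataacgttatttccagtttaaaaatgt
rps-28 (chrIV:1659094-1659294, plus strand): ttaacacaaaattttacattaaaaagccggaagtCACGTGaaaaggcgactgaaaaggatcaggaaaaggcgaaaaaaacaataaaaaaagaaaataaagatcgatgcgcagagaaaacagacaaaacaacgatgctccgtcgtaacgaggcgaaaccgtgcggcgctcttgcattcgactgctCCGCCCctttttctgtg

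The 13-base run AAGTGCGCTCCAC came from a comparison of 11 distinct windows, those of 12 of the 15 members with overlapping peaks of all 3 libraries, and was the only run of that length present in 3 or more windows. The other 3 members of that kind were not compared. Its centre lay 6 bp from the summit at rps-16, 17 bp at rpl-20 and 25 bp at rpl-12. Those are 3 of the 4 members with the highest pooled signals. The run occurs 89 times in the nuclear genome on both strands and in 0.0801% of the promoters of protein-coding genes (250 bases before to 50 after the gene's 5' end). It was present in 6 of 30000 windows around pooled summits and in 2 of the 102 reproducible windows. Of the 6, 3 counted at ribosomal protein genes by the 2000 bp rule. Among these only the window of rpl-12 had a member as nearest coding gene, while fib-1 and Y17G9B.5 were nearest at rps-16 and rpl-20. Of the members' promoters, 1 held the run. The remaining pooled windows with it had penr-1, dnj-12 and sld-2 as nearest coding genes and lower signals, from 7.47 to 10.2. The run was noticed after the sequences were seen and was not tested.

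Ribosomal protein genes carried listed peaks more often than protein-coding genes as a whole did, in every list. In the pooled relaxed list, made from all 3 libraries together and holding background by its deposited name, 79 of 79 members had a peak, against 77.3% of all protein-coding genes. In replicate 1 there were 48 members (60.8%) against 39.9% of all genes. In replicate 2 there were 68 members (86.1%) against 49.9%. In replicate 4 there were again 48 members (60.8%) against 28.7%. The members' share was above that of all genes in each of the 3 libraries. The relaxed lists cannot be read as lists of EGL-27 sites, because how many of their entries are background was not determined.

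Counts that combine libraries followed the same order. They rise with the share of genes that have a peak in each library, and agreement beyond that was not worked out. A peak in 2 or more libraries was found at 58 members (73.4%), against 35.8% of all protein-coding genes, and a peak in all 3 at 28 members (35.4%), against 10.8%. Peaks of different libraries that overlapped by 1 bp or more were found at 43 members (54.4%) for 2 or more libraries, against 17.4%, and at 15 members (19%) for all 3, against 2.27%. Only rpl-25.1 had no peak in any single library. The mitochondrial ribosomal protein genes (named mrpl- or mrps-), which serve the separate ribosome of the mitochondrion, stood close to all genes: 6 of 66 (9.09%) had a peak in all 3 libraries and 1 (1.52%) had overlapping peaks of all 3. The 38 translation factor genes stood between the members and all genes in these counts: 36 (94.7%) had a pooled peak, 20 (52.6%) a peak in replicate 4, 23 (60.5%) a peak in 2 or more libraries and 6 (15.8%) in all 3, and 2 (5.26%) had overlapping peaks of all 3. With 1 group and members chosen by name, these shares are descriptions, and no test was made of the difference from all genes or between families.

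**Figure D1:**
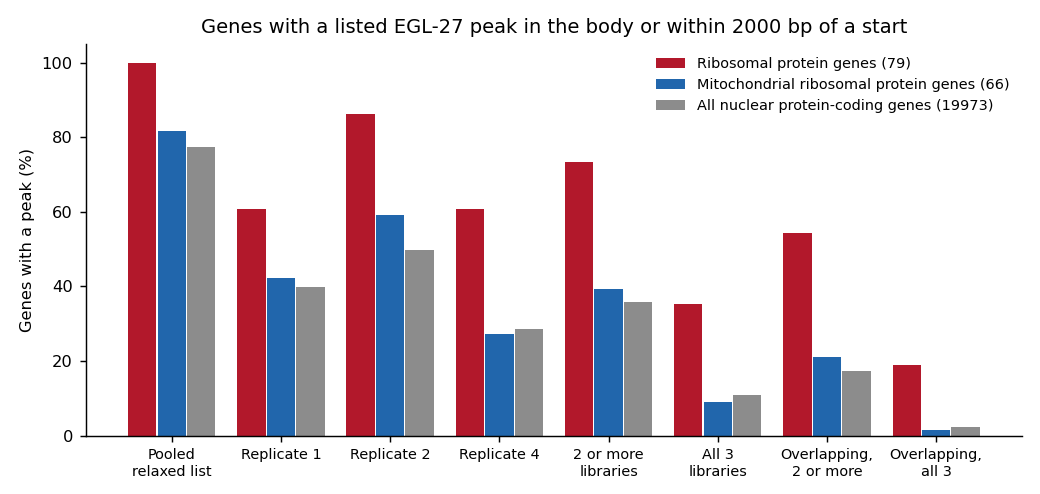
Percent of genes with a listed peak in the gene body or within 2000 bp of a transcript start (vertical axis), for the 79 ribosomal protein genes, the 66 mitochondrial ribosomal protein genes and all 19973 nuclear protein-coding genes, in the pooled list, each library and combinations of libraries. The ribosomal protein genes have the tallest bar in each set, from 100% in the pooled list to 19% for overlapping peaks of all 3 libraries.

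The size of the excess depended on how a peak was given to a gene. When each summit went only to the protein-coding gene with the nearest transcript start, 26 members (32.9%) had a peak in replicate 1 against 26.4% of all genes, 43 (54.4%) in replicate 2 against 34.6%, and 18 (22.8%) in replicate 4 against 18.7%. The members stayed above all genes in each library, by less in replicates 1 and 4. Of the 190 distinct pooled peaks at members, 97 (51.1%) had a member's start as the nearest coding start. By the nearest-start rule 60 members (75.9%) had at least 1 pooled peak, against 59.9% of all protein-coding genes. The median member was 754 bp long and the median protein-coding gene 2027 bp, so the searched stretch is on average shorter at members. With the gene body left out, the members' counts per library were the same, and the shares of all genes were 35.3%, 45.5% and 25.4% in replicates 1, 2 and 4. The libraries' lists differ in length, and with each cut to its 6636 highest signals the members' shares were 51.9%, 62% and 60.8%, against 29.9%, 29.3% and 28.7% of all genes.

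The fullest stretch of the profile of ribosomal protein genes lay just upstream of the gene, and summits were also more frequent than at all genes farther downstream. Within 500 bp of a transcript start, without counting the gene body, 55 members (69.6%) had a pooled summit, against 36.5% of all protein-coding genes. The shares were 30.4% against 13.6% in replicate 1, 51.9% against 18.9% in replicate 2 and 32.9% against 10.1% in replicate 4. The translation factor genes had 55.3% in the pooled list, and in replicate 4 their share of 36.8% was above that of the members. In the pooled list the 200 bp stretches from 400 to 200 bp and from 200 to 0 bp upstream of the gene's 5' end held 27.8 and 25.3 summits per 100 members, against 7.98 and 9.02 per 100 protein-coding genes. Between 2000 and 1800 bp upstream the values were 5.06 and 6.2. Downstream of the 5' end they were 17.7 and 5.97 between 600 and 800 bp, 17.7 and 5.49 between 800 and 1000 bp, and 15.2 and 5.47 between 1200 and 1400 bp, ratios to all genes like those just upstream. Of the 199 pooled pairs of a member and a peak, 47 (23.6%) lay within 500 bp upstream, against 14.1% for all genes. The highest pooled summit lay within 500 bp upstream at 32 members, within 500 bp downstream at 10 and farther away at 37. Replicate 2 and replicate 4 each had 15 summits among the 79 members between 400 and 200 bp upstream, and replicate 1 had 7.

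Past the start the libraries differed. In replicate 4, 25 of the 62 pairs of a member and a peak (40.3%) lay within 500 bp upstream and 5 (8.06%) within 500 bp downstream. In replicate 1 these shares were 21.1% and 15.8%, and in replicate 2 they were 25.2% and 20%. Over all protein-coding genes the shares in replicate 4 were 17.5% and 11%. Coding exons of members held 12.6% of the pooled pairs, introns 5.03% and 3' untranslated regions 2.51%, against 20.2%, 28.6% and 3.59% for all genes, whose bodies are longer. Beyond the 3' end lay 33.7% of the members' pooled pairs, against 8.24% of those of all genes, and because the members are short a window of 2000 bp reaches well past them into neighbours.

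**Figure D2:**
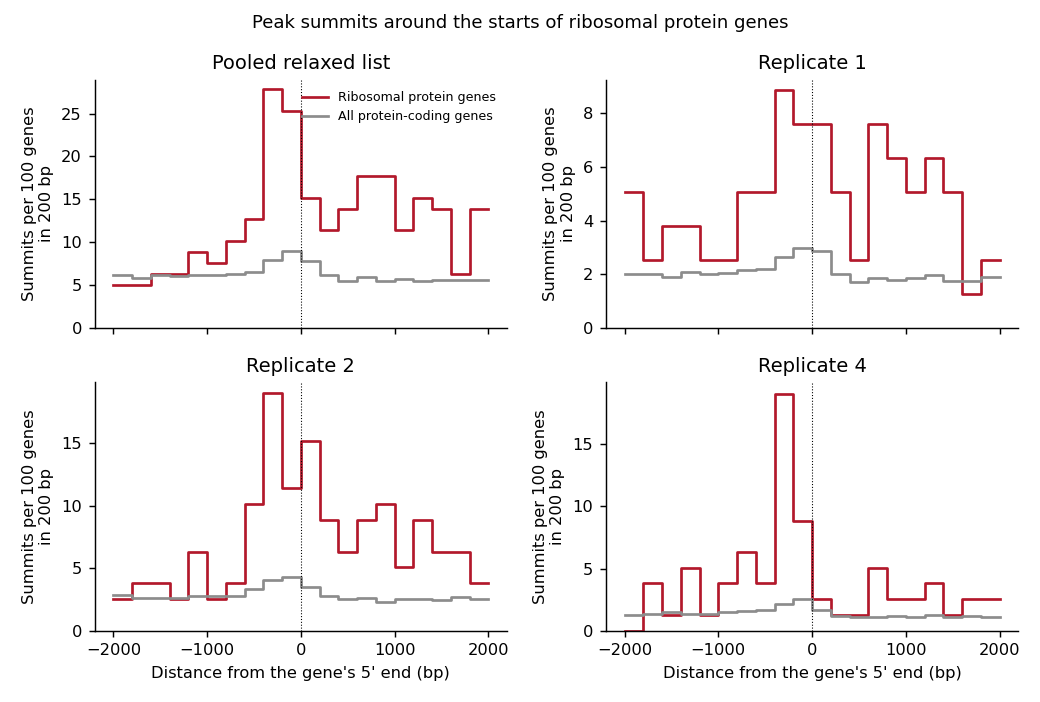
Peak summits per 100 genes in 200 bp steps (vertical axis) by distance from the gene's 5' end (horizontal axis, bp, negative upstream), in the pooled list and the 3 libraries, for ribosomal protein genes (red) and all protein-coding genes (grey). The red line is highest between 400 and 200 bp upstream in every panel, at 27.8 summits per 100 genes in the pooled list and 19 in replicates 2 and 4.

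In the reproducible list, in which the irreproducible discovery rate (IDR) procedure kept 102 peaks, 3 members (3.8%) had a peak, against 0.566% of all protein-coding genes. They were rps-16, rpl-20 and rpl-6. Of these, only rpl-6 was also the coding gene with the nearest start. No stalk gene and no mitochondrial ribosomal protein gene had a reproducible peak. Among the translation factor genes 2 of 38 (5.26%) had one, a share above that of the members.

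The gene rpl-6 encodes a large-subunit protein and lies on chromosome III (7208447 to 7209789, plus strand). Its reproducible peak (7207917 to 7208346, pooled signal 20.4, rank 79 of 30000) had its summit 315 bp upstream of the start, in the gap between dpy-31 and rpl-6. The signal is the authors' value for each peak and has no stated scale, so it was used only to rank peaks inside a list. Replicate 4 had a peak there of signal 8.94 (rank 41 of 6636) with its summit 314 bp upstream. Replicate 2 had a pair of overlapping peaks of 8.9 and 6.35 at 447 and 244 bp upstream, and replicate 1 a weaker-ranked one of 3.33 (rank 2866 of 9666) at 514 bp. Peaks of every library thus overlapped there, but the summits of the libraries did not all lie within 100 bp of each other. The rank was far better in replicates 2 and 4 than in replicate 1. A further pooled peak of 14.4 lay in a coding exon 439 bp inside the gene, with partners of 5.59 in replicate 1 and 5.58 in replicate 2 and none in replicate 4. The gene holds 3 small nucleolar RNA (snoRNA) genes, and this inner summit lay within 250 bp of R151.11 and of R151.12.

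The gene rpl-20 encodes another large-subunit protein, on chromosome IV (4749123 to 4749778, minus strand). Its reproducible peak (4749925 to 4750354, pooled signal 23, rank 48) lay 362 bp upstream of rpl-20 and 100 bp from the start of Y17G9B.5, which is transcribed away from rpl-20 on the other strand. The signals were 8.01 in replicate 1 (rank 37), 10.4 in replicate 2 (rank 141) and 3.06 in replicate 4 (rank 2459). Here replicate 1 ranked the site highest and replicate 4 lowest, the reverse of rpl-6. Since the summit lies between divergent starts, the peak cannot be given to either gene alone.

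The small-subunit gene rps-16 encodes a protein whose tail reaches the transfer RNA in the decoding site, and lies on chromosome V (15000018 to 15000541, minus strand). Its reproducible peak (15002080 to 15002509, pooled signal 23.2, rank 47) had its summit 1754 bp upstream of rps-16 and 72 bp from the start of fib-1, the gene for the nucleolar methyltransferase fibrillarin, which lies just upstream of rps-16 on the same strand. The signals were 3.86 in replicate 1, 13.3 in replicate 2 (rank 57) and 4.94 in replicate 4. The ranks in replicates 1 and 4 were 1611 and 433, and in every library the peak was closer to fib-1 than to the member. The summit lies between the divergent starts of fib-1 and mut-15, a gene on the other strand, so the peak cannot be given to fib-1 alone. A further pooled peak of 8.04 and a further replicate 2 peak of 6.4 were nearest to mut-15. When members were limited to peaks within 1000 bp, rps-16 no longer had one and 2 members with a reproducible peak were left.

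**Figure D3:**
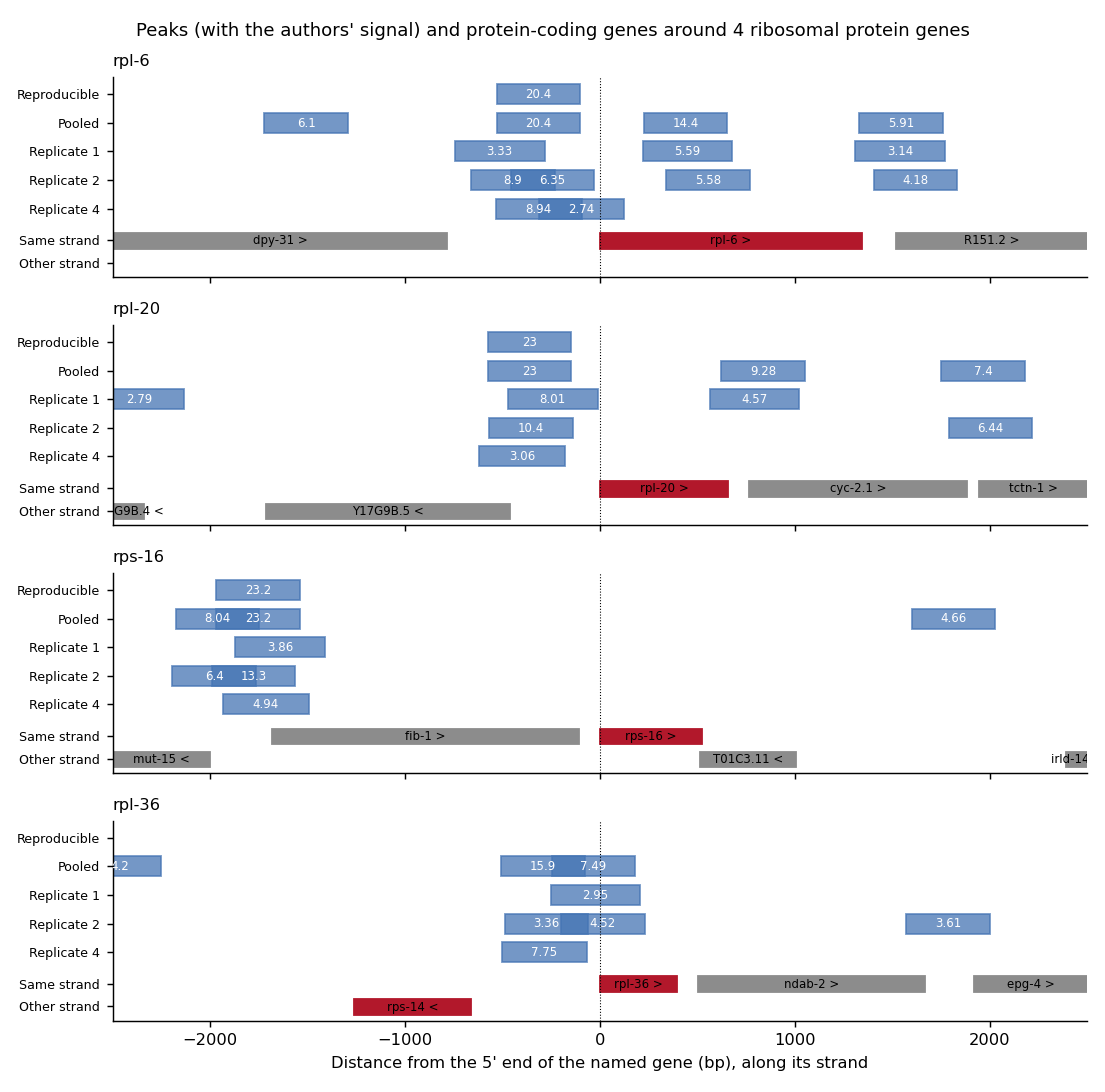
Peaks of the reproducible list, the pooled list and the 3 libraries (blue bars, with the authors' signal) and protein-coding genes (ribosomal protein genes red, others grey) by distance from the 5' end of rpl-6, rpl-20, rps-16 and rpl-36 (horizontal axis, bp, along the gene's strand). The reproducible peaks at rpl-6 and rpl-20 lie 315 and 362 bp upstream. That at rps-16 lies 1754 bp upstream, between the starts of fib-1 and mut-15, and the pooled peak of 15.9 lies between rpl-36 and rps-14.

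Overlapping peaks of all 3 libraries were present at 12 large-subunit genes (rpl-3, rpl-5, rpl-6, rpl-11.1, rpl-12, rpl-19, rpl-20, rpl-21, rpl-27, rpl-30, rpl-36 and rpl-38) and 3 small-subunit genes (rps-14, rps-16 and rps-28). At rpl-12, whose protein sits at the base of the stalk, summits of 2.99, 6.28 and 4.08 in replicates 1, 2 and 4 lay 22, 29 and 44 bp upstream, and this was the only member with summits of all 3 libraries within 100 bp of each other. At rpl-21 they were 6.19, 3.89 and 4.72, from 20 bp upstream to 158 bp downstream. At rps-28 they were 3.8, 4.95 and 4.66, at 576, 506 and 466 bp upstream. The summits of rpl-12 thus lay just upstream of the start and those of rpl-21 on both sides of it, while those of rps-28 lay farther upstream.

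Other sites were uneven between libraries. At rpl-5, whose protein carries 5S ribosomal RNA into the large subunit, the signal was 8.73 in replicate 1 (rank 24, the highest of any member there) and 4.98 and 3.43 in replicates 2 and 4, where the summits lay 759 and 774 bp upstream, closer to col-38, a collagen gene. At rpl-3, whose protein reaches toward the peptidyl transferase centre, the values were 2.77, 8.7 and 6.47 at 208, 246 and 652 bp upstream. The pooled peak of 15.9 between rpl-36 and rps-14, which are transcribed away from each other, counted for both genes. Replicates 2 and 4 had peaks of 3.36 and 7.75 there. The summit in replicate 4 (rank 67) was 285 bp from rpl-36 and 378 bp from rps-14. A peak of 2.95 in replicate 1 overlapped these, but its summit was 23 bp upstream of rpl-36. That is closer to a second pooled peak of 7.49, 34 bp upstream, where replicate 2 had a peak of 4.52. A high rank in 1 library therefore went with a middle or low rank in another at several members.

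Ranked by signal, the highest peaks of members stood high within the pooled list. The highest pooled signal per member ran from 3.84 at rpl-25.2 to 23.2 at rps-16, with a median of 8.82, against a median of 6.22 over the 15446 protein-coding genes with a pooled peak. Its percentile in the list had a median of 91.4 over members and 68.6 over those genes. Ranked by the q column instead, the medians were 74.5 and 69.6. In the upper 50% of the list by the q column, the median signal percentile was 38.9 over the 55 members with a peak left. It was 30.6 over all genes with one, and both values are below those of the whole list. A high q value thus went with a low signal in the pooled list, so the q medians do not measure peak strength a second way. A pooled peak in the upper 10% of the list was present at 43 members (54.4%), against 14.8% of all protein-coding genes, and in the upper 1% at 10 members (12.7%), against 1.59%. The maximum was taken over more peaks at members. There were 199 pairs of a member and a peak at 79 members, against 35306 pairs at the 15446 genes with a pooled peak. Per gene this was 2.52 at members, against 1.77 over all 19973 genes, those without a pooled peak included. Over single peaks the median percentile was 68.7 for members and 50 for all genes' peaks.

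After the 3 reproducible members came rpl-12 (17.1), rpl-36 and rps-14 with their shared peak (15.9), rpl-27 (15), rpl-21 (14.6), and rpl-39 and rps-30, which also share a peak between divergent starts (14.5). The lowest signal in the reproducible list was 18.7 and no pooled peak at or above it was outside that list, so the step from rpl-6 at 20.4 to rpl-12 at 17.1 is where the list ends. In replicate 2 the peak of rpl-39 and rps-30 had a signal of 10.5 (rank 136), and no peak of replicate 1 or replicate 4 overlapped it. Replicate 4 had another peak at these genes, of 2.22, and replicate 1 had none. The gene rpl-39 encodes a protein lining the exit tunnel for new protein chains. In the mitochondrial family the highest pooled signal was 12.4, with a median of 5.71 over the 54 genes with a peak, and in the translation factor genes the median was 6.57 over 36 genes.

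**Figure D4:**
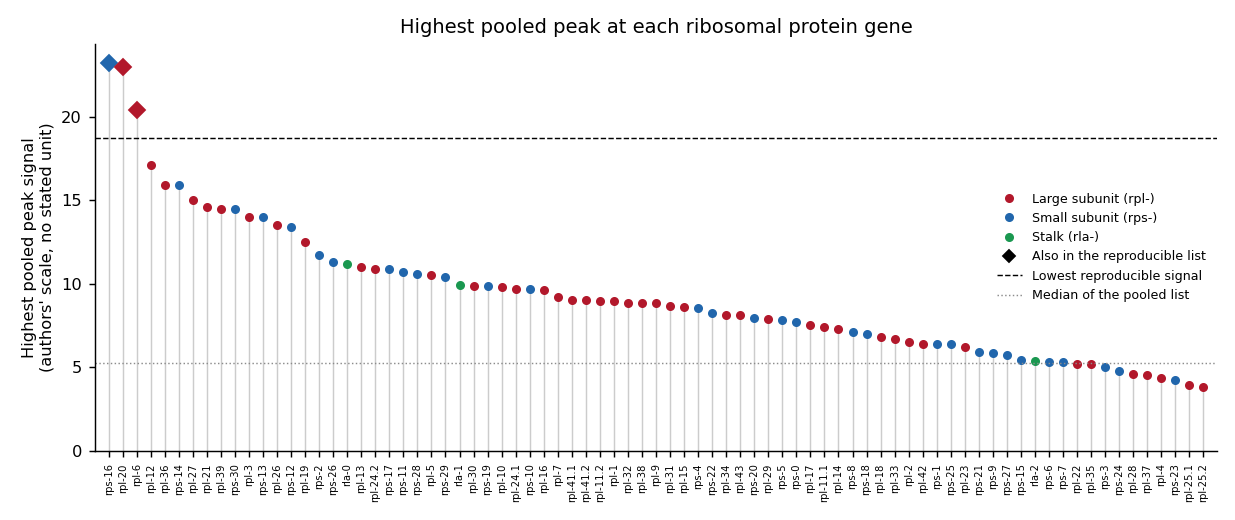
Highest pooled peak signal at each of the 79 ribosomal protein genes (vertical axis, authors' scale with no stated unit), in falling order, coloured by subunit. Diamonds mark rps-16, rpl-20 and rpl-6, the members above the lowest reproducible signal of 18.7 (dashed line), and the dotted line at 5.25 is the median of the pooled list.

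The 5 members with the highest signals differed between libraries. In replicate 1 they were rpl-5 (8.73), rpl-20 (8.01), rpl-11.2 (7.04), rpl-7 (6.23) and rpl-21 (6.19). In replicate 2 they were rps-16 (13.3), rpl-39 and rps-30 (10.5), rpl-20 (10.4) and rpl-38 (9.41). In replicate 4 they were rpl-6 (8.94), rpl-36 and rps-14 (7.75), rpl-3 (6.47) and rps-13 (6.03). The gene rpl-20 was the only one among these in a pair of libraries, and none was among them in all 3. The highest member peak lay upstream of the gene at 14 of these 15 places, the exception being rpl-38 in replicate 2, whose summit lay 197 bp inside.

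The subunits showed no common order across libraries. In replicate 1, 31 of 45 large-subunit genes (68.9%) and 14 of 31 small-subunit genes (45.2%) had a peak. In replicate 2 the counts were 42 (93.3%) and 24 (77.4%). In replicate 4 they were 25 (55.6%) and 21 (67.7%), so the order turned. Within 500 bp of a start, pooled summits were present at 30 large-subunit genes (66.7%) and 22 small-subunit genes (71%).

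**Figure D5:**
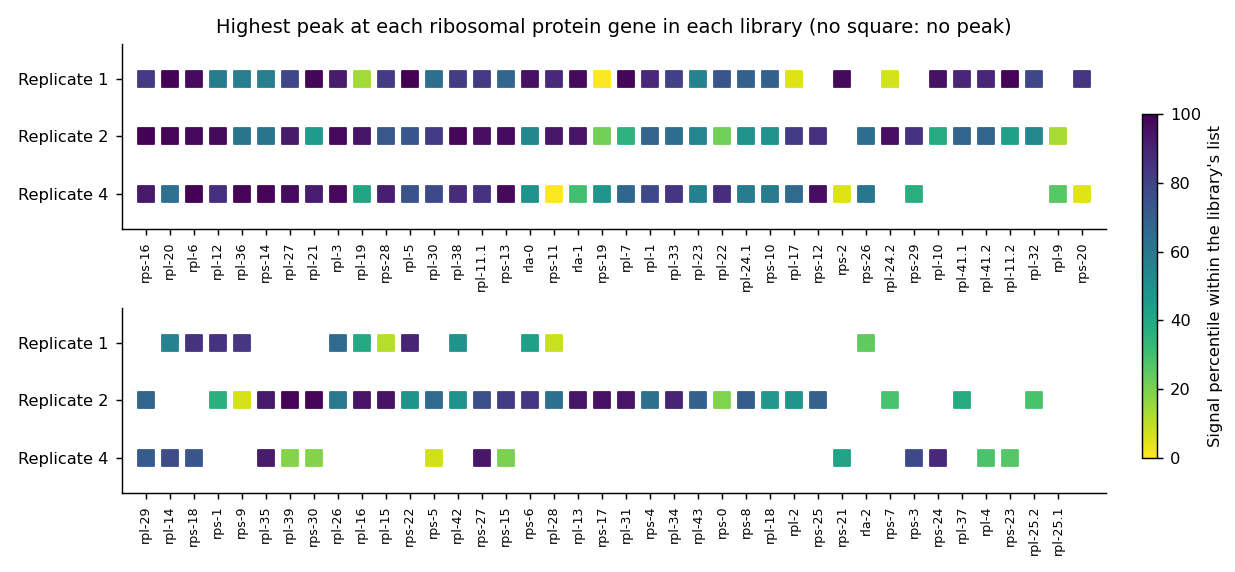
Signal percentile within each library's list (colour) of the highest peak at each ribosomal protein gene (horizontal axis) in replicates 1, 2 and 4 (rows); a missing square means no peak. The genes are ordered by the number of libraries with a peak, from 28 genes with all 3 through 30 genes with 2 and 20 genes with 1 to rpl-25.1 with none.

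The genes rla-0, rla-1 and rla-2 encode the stalk proteins. At rla-0 the highest signals were 5.14, 4.23 and 2.76 in replicates 1, 2 and 4, with summits 324 bp inside, 1438 bp downstream and 836 bp upstream of the start. At rla-1 they were 5.63, 7.25 and 2.42. At rla-2 there was 1 peak, in replicate 1, of signal 2.4 and 1870 bp upstream, and its highest pooled signal was 5.4. Thus rla-0 and rla-1 had peaks in all 3 libraries, with the highest ones at differing positions, and rla-2 nearly none. Counting all peaks, some did overlap. At rla-0 these were peaks of replicates 1 and 2 at 324 and 139 bp inside, and of replicates 2 and 4 at 1158 and 1134 bp downstream. At rla-1 they were peaks of replicates 2 and 4, 213 bp inside and 66 bp upstream.

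Some members have a decimal part in the name. Of these, rpl-25.1 (X chromosome) and rpl-25.2 had the lowest pooled maxima of all members. The maxima were 3.93 and 3.84, at percentiles of 11.2 and 4.9. The peaks of rpl-25.1 and rpl-25.2 lay 1834 and 683 bp downstream of the starts. The copies rpl-11.1 and rpl-11.2, whose proteins bind 5S ribosomal RNA with RPL-5, had pooled maxima of 7.41 and 8.99. At rpl-11.2, the other member on the X chromosome, the signal was 7.04 in replicate 1 with its summit 373 bp upstream and 3.9 in replicate 2, and replicate 4 had no peak. At rpl-24.1 and rpl-24.2 the maxima were 9.67 and 10.9. The neighbouring genes rpl-41.1 and rpl-41.2 share 3 pooled peaks (maximum 9.05), rpl-41.2 has a further pooled peak of 5.74, and neither had a peak in replicate 4. Reads from near-identical copies could be misplaced between them, and the treatment of such reads is not stated. How alike the genes of each pair are was not examined.

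The members are not independent of one another. Their highest pooled peaks were 75 distinct peaks, since 4 pairs of members share theirs: rps-14 and rpl-36, rps-10 and rpl-24.1, rpl-39 and rps-30, and rpl-41.1 and rpl-41.2. Of the members, 25 (31.6%) lie on chromosome I and 2 (2.53%) on the X chromosome, against 14.4% and 13.7% of protein-coding genes. When the X chromosome was left out, which was decided once the data had been seen, the members' shares were 61%, 87% and 62.3% in replicates 1, 2 and 4, against 39.6%, 49.3% and 28% of all autosomal genes. A snoRNA gene lies inside 12 members, 17 snoRNA genes in all. Of the 12, 5 had a pooled summit within 250 bp of one: rpl-6, rpl-15, rps-4, rps-12 and rps-13. Every member had a pooled peak by the 2000 bp rule. The share for other host genes, or for like stretches without a snoRNA gene, was not worked out. The count therefore shows no link to snoRNA genes.

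Of the 5 words searched, TGATAA differed most, in percentage points, between the members' windows and all pooled windows, and GAGAGA and CACGTG had nearly the same share in both. The word GAGAGA was present in 21.5% of the members' promoters and 21.8% of all promoters, and in 13.7% of the 190 windows around the members' pooled summits, against 14.2% of all pooled windows and 46.1% of the 102 reproducible windows. The GATA words TGATAA and AGATAA were in 27.8% and 20.3% of members' promoters, against 30.2% and 21.2% of all. In the windows around pooled summits TGATAA was in 9.47% at members and 18.8% of all, and AGATAA in 10% and 11.5%. CACGTG was in 1 of 79 member promoters (1.27%) and 5.82% of all, and GGGCGG in 3 (3.8%) and 7.83%. In the windows CACGTG stood at 3.68% against 3.9%, and GGGCGG at 6.32% against 3.78%. The windows of rps-16, rpl-20, rpl-12 and rpl-6 printed above hold none of the 5 words, while rps-28 holds CACGTG and GGGCGG. The windows differ in base composition, with a median of 39.3% G and C bases at members and 35.8% over all pooled windows. How far this bears on the word shares was not tested. The word shares are descriptions of letters in fixed windows, without a test.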

How the data were processed

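The members and lists were chosen with earlier results of these data known. Lists on build ce11 were used as the authors deposited them; each library's list was made from its alignment and a control, the pooled list from all 3 alignments, and the reproducible list from these lists, per the deposited README texts. For the aligner, the peak caller and the IDR threshold, nothing is stated in the sources. The signal column is the authors' deposited value per peak, and the q column, which falls below 0, was read as a deposited score and used only for ranking. Lists held 9666, 13686 and 6636 peaks (replicates 1, 2 and 4), 30000 (pooled) and 102 (reproducible). In replicate 2, 23 peaks were mitochondrial and reached a signal of 335. Read depth is unknown, so levels were not compared between lists.

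Genes came from Ensembl release 115 (46926 genes) on WBcel235, the assembly of ce11; 0 peaks ended beyond a chromosome. Coordinates are 1-based. Background shares are over all nuclear protein-coding genes, members included. Assignment was tested on simulated peaks. Distances are from a summit to the closest start of that gene. A window is 100 bp to each side of a summit. Scripts used Python 3.11.15. With 1 group no test was run. The ce10 lists were not used here. The text names members with a reproducible peak, overlapping peaks of all 3 libraries, the 10 highest pooled signals or the 5 highest per library. It also names the stalk genes and members with a decimal part. Other items were picked once their values were known: col-38, fib-1, Y17G9B.5 and other neighbours, snoRNA hosts and the run of 13 bases. The alternatives were distance, gene body, assignment, peak extent, list depth, ranking column, overlap and leaving out replicates.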

Additional observations from a re-analysis of the deposited data

How the results depend on the processing

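Of the settings tried, those without the gene body, with the whole peak in place of the summit, and with single-library lists of equal length kept every count within 1.5 times. At 500 bp from a start, with the gene body still counted, 27 members (34.2%) had a peak in replicate 1, against 27.1% of all protein-coding genes. In replicate 4 there were 28 members (35.4%) against 19.1%. A peak in 2 or more libraries was present at 29 members and in all 3 at 11. Overlapping peaks were present at 26 (2 or more) and 7 (all 3). For counts that combine libraries, the share of all genes was not worked out under these alternatives. At 1000 bp, 18 had a peak in all 3 libraries, and 57.6% of pooled pairs lay within 500 bp of a start, against 38.2% at 2000 bp. With the nearest coding start only, 1 member had a reproducible peak, 26, 43 and 18 had a peak in replicates 1, 2 and 4, 25 in 2 or more libraries and 9 in all 3; overlapping peaks of 2 or more and all 3 libraries were present at 22 and 7 members, the share within 500 bp was 62.9% and the median percentile 82.2.

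In the upper 50% of each list by signal, the members' shares in replicates 1, 2 and 4 were 48.1%, 62% and 40.5%. The shares of all protein-coding genes were 23.2%, 30.1% and 15.8%. In these shortened lists 37 members had a peak in 2 or more libraries and 17 in all 3. By the q column these were 37 and 18, with 1 member in the reproducible list and a median signal percentile of 38.9. Without that reduction the q column gave a median percentile of 74.5. In the pooled list a high q value went with a low signal, so neither median is a second measure of peak strength. The cause was not tested. With summits within 100 bp, 25 members had sites of 2 or more libraries and 1 of all 3.

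Leaving out a replicate kept only sites found in both other libraries. The pooled count was then 22 to 28 and the reproducible count 3. Members with a peak in both others numbered 32 to 43 and with overlapping peaks in both 23 to 27, the lowest without replicate 2. The share within 500 bp was 54.2 to 58.1% and the median percentile 95.4 to 96.8. These shifts follow from demanding other numbers of libraries. No paired analysis was possible because there is only 1 group. Read depth is unknown, so a missing peak does not show that EGL-27 was absent.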
